A study of Mus musculus with 18 samples.

Results

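The effect of a guide RNA against Myc on mRNA levels was measured in the TC1 line, which the labels describe as fibrosarcoma cells of the mouse. The comparison used 6 of the 18 samples of the series, namely 3 mRNA libraries of cells carrying the guide (sgMyc) and 3 of unedited cells (WT) sequenced as their own set. The members were chosen by label alone, as the sgMyc and WT columns of a single count table, and total RNA was the starting material for both groups. The other samples, which concern a guide against Nat10, are not used here. No library carried a control guide, so all differences are between guided and unedited cells. The labels give no time since editing and do not say whether the 3 sgMyc libraries came from separate clones, pools or cultures. The p-values therefore measure only the spread between these libraries, which may be technical. Library totals lay between 51875052 and 65768024 counts over 28738 genes, of which 16794 had enough counts to test. Levels are given as FPKM (read fragments scaled to gene length and library size), in the order of replicates 1, 2 and 3. Fold changes are log2 ratios of sgMyc over WT from edgeR's quasi-likelihood test on the counts, with Benjamini-Hochberg adjusted p-values over all genes tested and a threshold of 0.05.

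MYC is a transcription factor that pairs with MAX and binds the DNA letters CACGTG, called the E-box. It raises the transcription of genes for making ribosomes, nucleotides and proteins and for entering the cell cycle, and it is a driver of growth in many tumours. MAX also pairs with the MXD, MXI1, MNT and MGA proteins, which compete for the same sites and mostly hold transcription down. With the factor MIZ1 (gene Zbtb17), MYC can lower the transcription of CDK inhibitors such as Cdkn2b. Interferon-stimulated genes, which dominate the largest rises of this comparison, are given only as a reference, and the text follows the other gene programmes.

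The E-box was present upstream of some of the growth genes described below. The 6 stretches shown here lie within the 250 bases before the RefSeq start of genes for making ribosomes or otherwise listed as MYC targets, on the GRCm38.p6 build, with CACGTG in capitals. They were taken from members of those lists with a group mean of at least 5 FPKM that were called lower without sgMyc replicate 3. Eligible members also had replicate 3 above every WT library and the motif before the start in their RefSeq promoter. The stretches shown are from those whose replicate 3 stood farthest from replicates 1 and 2. The motif began 12 to 80 bases before the start in 5 of them and 232 bases before it in Phb1.

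Nme1, chr11:93968273-93968347, minus strand: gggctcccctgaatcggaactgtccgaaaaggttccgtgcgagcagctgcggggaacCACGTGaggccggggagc
Hspd1, chr1:55088261-55088380, minus strand: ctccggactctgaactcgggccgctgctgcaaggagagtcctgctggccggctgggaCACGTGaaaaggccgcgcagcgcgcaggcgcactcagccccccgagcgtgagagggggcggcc
Nop2, chr6:125131766-125131882, plus strand: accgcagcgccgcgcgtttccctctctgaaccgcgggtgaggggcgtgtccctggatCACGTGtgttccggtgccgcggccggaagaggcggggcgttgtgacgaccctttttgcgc
Wdr46, chr17:33940654-33940722, plus strand: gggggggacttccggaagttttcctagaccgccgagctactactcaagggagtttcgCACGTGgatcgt
Phb1, chr11:95666707-95666787, plus strand: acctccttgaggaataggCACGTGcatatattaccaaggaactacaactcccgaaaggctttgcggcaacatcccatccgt
Utp18, chr11:93885767-93885843, minus strand: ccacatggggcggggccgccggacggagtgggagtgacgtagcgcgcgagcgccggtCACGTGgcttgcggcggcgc

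Of 59 MYC target promoters in the RefSeq table, 16 (27.1%) held CACGTG between 250 bases before and 50 after the start, as did 11 of 55 ribosome biogenesis promoters (20%), against 7.24% of all 27025 promoters of this length. CACGTG was also found in 14% of 43 replication gene promoters, 9.09% of 55 mitosis gene promoters and 20.7% of 29 nucleotide synthesis promoters. Lists that did not mostly fall in replicates 1 and 2 held it too, at 25% of 32 lysosome gene promoters and 21.4% of 28 p53 target promoters. Nor did every list with negative medians in replicates 1 and 2 hold it more often than all promoters. It was found in 4% of 25 proteasome, 7.25% of 69 mitochondrial ribosomal protein and 5.88% of 17 snoRNA host promoters. In splicing factor promoters it was 14.9% of 47. One of TTTCCCGC, TTTGGCGC, TTTCGCGC or TTTGCCGC, forms of the E2F site, was found on either strand in 30.2% of the replication gene promoters, against 2.32% of all. TTTGAA, the core of the CHR element of mitotic genes, was found in 69.1% of the mitosis gene promoters, against 18.1%. These are matches of letters and not measured binding, and each list is given only where at least 80% of its tested genes had a promoter in the table.

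One library stood apart. Across the 16794 genes, sgMyc replicate 3 was the farthest of the 3 sgMyc libraries from their median in 71.1% of genes, replicate 1 in 15.2% and replicate 2 in 13.7%. The deviation of a library is used below for its normalised log2 CPM (counts scaled to library size) minus the mean of the 3 WT libraries. Over genes, which share their libraries and are not independent, the deviations of replicates 1 and 2 had a Pearson r of 0.90, and replicate 3 had 0.67 with replicate 1 and 0.68 with replicate 2. Replicate 3 was on the side of WT that replicates 1 and 2 shared, and beyond all WT libraries, in 7302 genes (43.5%). It was on the opposite side and beyond all WT libraries in 4456 genes (26.5%). With replicate 1 in the place of replicate 3, that second count was 438, and with replicate 2 it was 438. Replicate 3 was inside the WT range on the same side in 1504 genes (8.96%) and on the opposite side in 1468 (8.74%). In 12.3% of genes replicates 1 and 2 differed in sign. List counts below of the same or opposite side, where not said to be beyond WT, take in both places. They are read against the 2 shares of that side together. In pairwise chi-square comparisons, 61.6% and 61.7% of genes with at least 20 counts in the pair differed between replicate 3 and replicates 1 and 2 beyond a limit that sampling passes in 0.1%. That share was 13% between replicates 1 and 2 and 15.5% to 20.2% between WT pairs, so no 2 libraries agreed within sampling noise. Its total of 65768024 counts was the highest of the set. In bulk RNA, fewer cells of a type and less RNA per cell cannot be told apart. The cause of the difference was not tested, and the counts for each gene list below are also given without it.

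**Figure D1:**
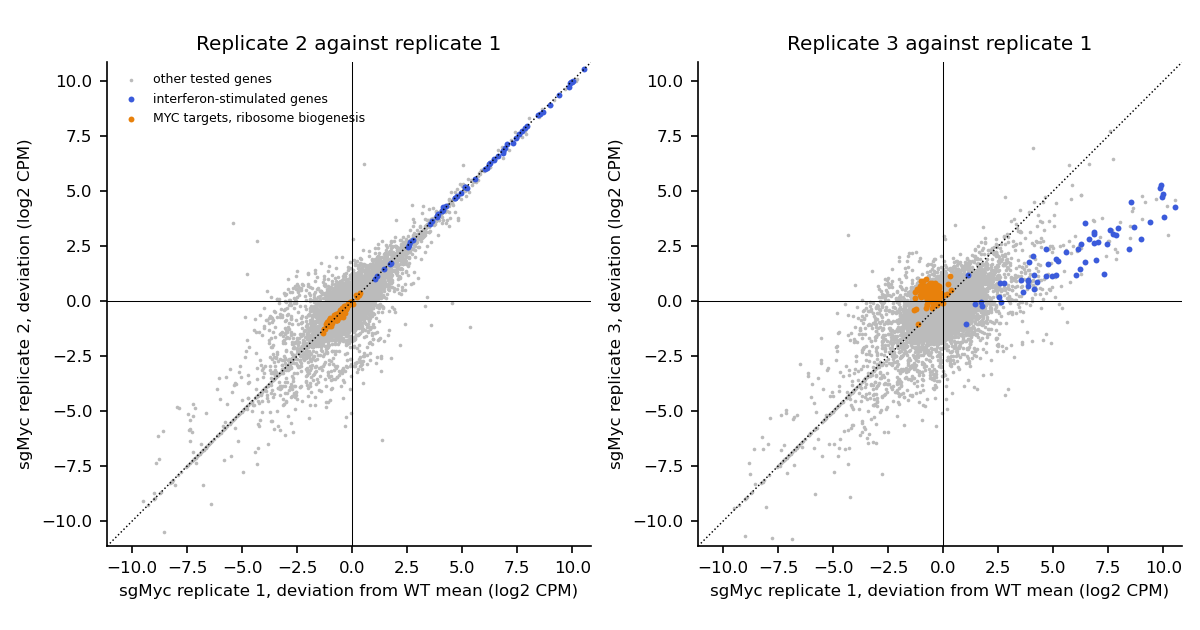
Deviation from the WT mean (log2 CPM) of sgMyc replicate 2 (left) and replicate 3 (right) against replicate 1, one grey point per tested gene. MYC targets and ribosome biogenesis genes are orange and interferon-stimulated genes blue. On the left the points follow the diagonal, and on the right most orange genes lie below 0 in replicate 1 and above 0 in replicate 3.

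With all 6 libraries, 1194 genes were called higher (7.11% of those tested) and 1488 lower (8.86%) in sgMyc. Without sgMyc replicate 3, 4658 of 17485 genes were higher (26.6%) and 4710 lower (26.9%). Of the 2682 genes called with all libraries, 2677 were called in the same direction without replicate 3. The calls also needed the other libraries. Leaving out any 1 of WT replicates 1, 2 and 3 or sgMyc replicates 1 and 2 gave between 187 and 423 higher and between 493 and 802 lower genes. All 3 sgMyc libraries lay above all 3 WT libraries in 16.7% of genes and below them in 21.1%. Of 4647 genes that fell in replicates 1 and 2 and were tested in both fits, replicate 3 was above every WT library in 1492. Of 4493 that rose, it was below every WT library in 1256. The median log2 fold change over all genes was -0.03 with and -0.01 without replicate 3. These are the shares and medians against which the gene groups below are read. The share of all tested genes with replicate 3 above, or below, every WT library was not counted. List counts of that kind are therefore descriptions, with no value for all genes beside them. Of 105 genes named in the text and called with all libraries, 42 were called, in the same direction, whichever single library was left out. They are Adamts14, Adm, Aim2, Bgn, Cdk2, Crabp1, Ctsz, Dck, Dnmt1, Ern1, Fads1, Fbln1, H2bc4, H3c3, Itgav, Kdm1a, Klf6, Lrp5, Magea10, Pfkp, Pmp22, Ppic, Ptgs2, Rapsn, Rgs16, Rps6ka6, Scd2, Smc2, Snhg8, Sod2, Sord, Srebf1, Steap2, Sulf2, Tdrkh, Tgfb3, Thy1, Tspan6, Tubb3, Xlr3c, Zbtb38 and mt-Nd2. The call of any other named gene was lost without at least 1 library other than sgMyc replicate 3.

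**Figure D2:**
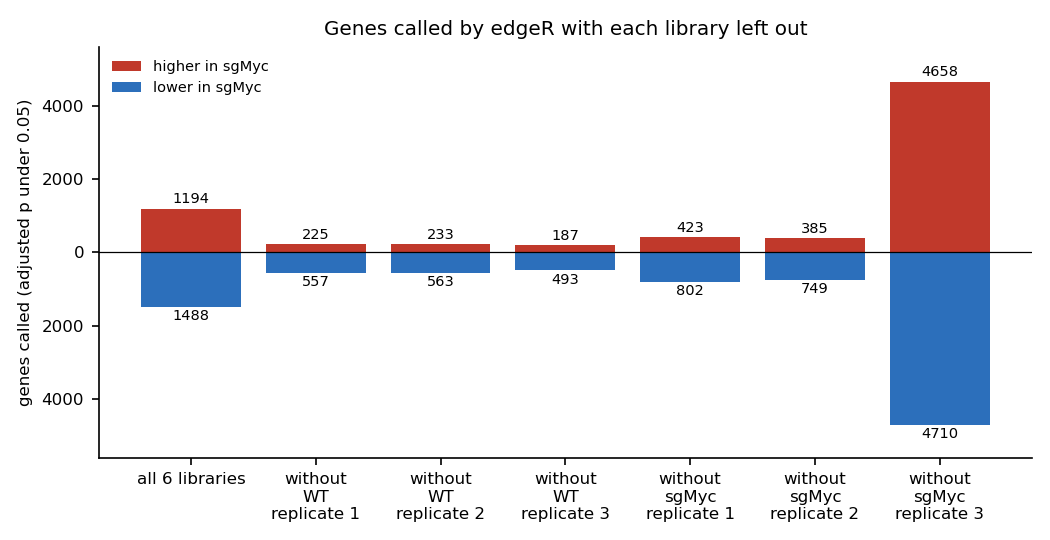
Number of genes called higher (upper bars) and lower (lower bars) in sgMyc at an adjusted p under 0.05 by edgeR, with all 6 libraries and with each library left out. The bars without sgMyc replicate 3 are the tallest, at 4658 and 4710 genes.

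Myc itself was lower in all 3 sgMyc libraries, and least so in replicate 3. Its mRNA was 64.8, 61.6 and 70.8 FPKM in WT and 21.1, 20.9 and 34.1 FPKM in sgMyc. The sgMyc values lay far below WT without overlap, and replicate 3 kept more Myc mRNA than replicates 1 and 2 (log2 fold change -1.37, SE 0.22, adjusted p = 0.011; -1.61, adjusted p = 5.7e-08 without replicate 3). The call of Myc was lost when any single WT library was left out, with adjusted p-values of 0.0566, 0.0519 and 0.0658 for replicates 1, 2 and 3 in turn. Whether the remaining mRNA encodes MYC protein cannot be read from gene counts. Among its partners and rivals, Max was 12.2, 12.7 and 13.3 FPKM in WT and 13.6, 13.8 and 14.8 FPKM in sgMyc, slightly above WT in every sgMyc library, and did not pass (log2 fold change 0.15, SE 0.08, adjusted p = 0.29). Mxi1, a competing repressor, fell furthest in replicate 3, from 19.7, 20.8 and 20.9 to 14.2, 13.4 and 8.6 FPKM (log2 fold change -0.77, SE 0.18, adjusted p = 0.0333). Mxd1, another competitor, was 3.01, 2.81 and 0.897 FPKM in sgMyc against 0.931, 0.957 and 0.729 in WT, a rise that passed only without replicate 3 (log2 fold change 1.35, SE 0.43, adjusted p = 0.085; 1.77, adjusted p = 2.7e-06 without replicate 3). Ruvbl1 and Ruvbl2, the paired ATPases that MYC uses as cofactors, were below WT in replicates 1 and 2 and above it in replicate 3: Ruvbl2 was 51.9, 50.3 and 48.3 FPKM in WT and 30.9, 31.3 and 65.2 FPKM in sgMyc. Of 19 network genes tested, the calls with all libraries were Myc and Mxi1, and 0 to 1 fell when any other library was left out. Without replicate 3, 5 rose and 8 fell. Mxd1 was picked after its values were seen.

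The targets of MYC were on different sides of WT in the 3 sgMyc libraries. Of 66 targets tested, 59 fell and 2 rose without replicate 3, against 26.9% and 26.6% of all genes. In replicate 3, 56 of the 66 were above every WT library, and 56 were on the opposite side from replicates 1 and 2. The median deviations were -0.60, -0.65 and 0.38 in sgMyc replicates 1, 2 and 3. With all 6 libraries, only 2 of the 66 passed, both lower (1 when any other library was left out), and the median log2 fold change was -0.15. Srm, which makes spermidine, was 67.6, 64.9 and 64.7 FPKM in WT and 38.6, 37.9 and 131 FPKM in sgMyc. Replicates 1 and 2 were well below every WT library and replicate 3 was far above (log2 fold change 0.09, SE 0.50, adjusted p = 0.93; -0.75, adjusted p = 4.7e-07 without replicate 3). Nolc1, a nucleolar chaperone of snoRNPs, was 39, 38.5 and 38.6 FPKM in WT and 17.7, 19.1 and 54.4 FPKM in sgMyc (-1.04, adjusted p = 7.2e-08 without replicate 3). Rrp9, which helps process ribosomal RNA, was 13.2, 14.2 and 13.6 FPKM in WT and 6.89, 7.97 and 25.4 FPKM in sgMyc. Hspd1, the mitochondrial chaperonin, was 328, 329 and 323 FPKM in WT and 191, 191 and 494 FPKM in sgMyc. In each of these 4 genes the WT libraries differed little, replicates 1 and 2 were below them and replicate 3 was above. All 3 sgMyc libraries were below every WT library in 5 targets. Of these, Npm1, Ldha and Eif4e did not pass (log2 fold change -0.52, SE 0.18, adjusted p = 0.11 for Npm1), and the 2 that did were Sord, which converts sorbitol (16.1, 16.6 and 18.5 in WT and 7.8, 8.86 and 8.12 FPKM in sgMyc; log2 fold change -1.05, SE 0.10, adjusted p = 0.00221), and the cyclin gene Ccnd2 (18.8, 18.5 and 19.3 and 11, 11.6 and 15 FPKM; log2 fold change -0.59, SE 0.14, adjusted p = 0.0356). Nolc1, Npm1, Ldha and Eif4e were picked after their values were seen.

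**Figure D3:**
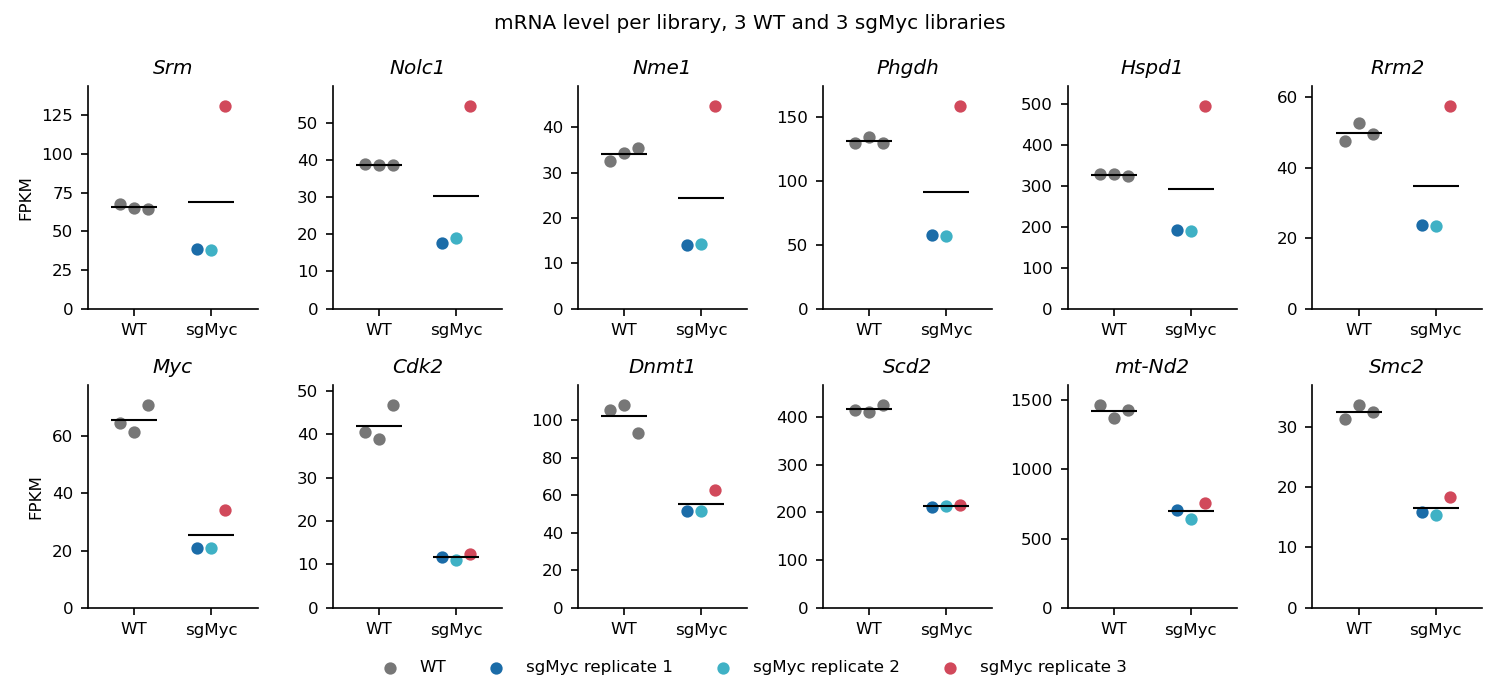
FPKM of 12 genes in each WT (grey) and sgMyc (coloured by replicate) library, on linear axes from 0, with a horizontal bar at the group mean. Srm, Nolc1, Nme1, Phgdh, Hspd1 and Rrm2 have replicate 3 above WT and replicates 1 and 2 below, whereas Myc, Cdk2, Dnmt1, Scd2, mt-Nd2 and Smc2 have all 3 sgMyc libraries below WT.

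Ribosome production followed the same division. Of 61 ribosome biogenesis genes, 55 fell and 2 rose without replicate 3 (median -0.41), and replicate 3 was above every WT library in 52. Nhp2, a core protein of the snoRNPs that guide pseudouridylation, was 46, 44 and 46.9 FPKM in WT and 20.1, 22.5 and 64.6 FPKM in sgMyc. Lyar, a nucleolar growth factor, was 28.5, 26.1 and 28.3 FPKM in WT and 14.2, 13.8 and 36.7 FPKM in sgMyc. Both had replicates 1 and 2 far below WT and replicate 3 above it. Polr1c, a subunit of RNA polymerases I and III, was below WT in all 3 (23, 24.2 and 24 in WT and 16.9, 15.5 and 18.4 FPKM in sgMyc; log2 fold change -0.48, SE 0.09, adjusted p = 0.0208). Imp3, a U3 snoRNP protein, was above it in all 3 (36, 35 and 35.6 and 46.3, 45.7 and 49.3 FPKM; log2 fold change 0.41, SE 0.08, adjusted p = 0.0199). These were the only calls with all libraries. With any other library left out, none fell and 0 to 1 rose. Among 20 hosts of small nucleolar RNAs, 15 were called without replicate 3, all lower. In replicate 3 their median deviation was -0.01, against -0.65 and -0.79 in replicates 1 and 2. Snhg8 fell alike in all 3 libraries, from 17.1, 18.4 and 16.2 to 9.65, 9.6 and 9.45 FPKM (log2 fold change -0.85, SE 0.10, adjusted p = 0.0043), while Snhg1 was 9.6, 11.2 and 20.8 FPKM in sgMyc against 24.4, 24.8 and 25.1 in WT (log2 fold change -0.83, SE 0.30, adjusted p = 0.11; -1.22, adjusted p = 5e-07 without replicate 3).

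Ribosomal proteins were divided within the family. Of 79 cytosolic ribosomal protein genes, 57 fell without replicate 3 (median -0.23), with 44 above and 25 below every WT library in replicate 3. Rps2, of the small subunit, was 1244, 1230.5 and 1258 FPKM in WT and 809.7, 808 and 1610.3 FPKM in sgMyc, opposite in replicate 3. Rpl34, of the large subunit, was 52.3, 53.7 and 65.8 FPKM in sgMyc against 76.5, 77.3 and 79.3 in WT and fell with all libraries (log2 fold change -0.44, SE 0.11, adjusted p = 0.0493). With all 6 libraries 7 fell and 1 rose, and 0 to 1 fell when any other library was left out. Many of these genes have near-identical processed pseudogenes, so their counts are uncertain where reads could be shared. Of 78 mitochondrial ribosomal protein genes, 39 fell and 3 rose without replicate 3, and 59 were above every WT library in replicate 3. Mrpl12 was 38, 38.2 and 36.7 FPKM in WT and 21.3, 20.5 and 47.5 FPKM in sgMyc, whereas Mrpl50 fell in all 3, from 16.9, 16.5 and 16.6 to 8.85, 7.35 and 11 FPKM (log2 fold change -0.88, SE 0.16, adjusted p = 0.0173).

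Translation and amino acid supply genes were lower in replicates 1 and 2. All but 2 of 20 cytosolic tRNA synthetase genes, which load amino acids on tRNA, fell without replicate 3 (18 lower, 1 higher; median -0.63). None passed with all 6 libraries in edgeR, where 2 of the 20 had an unadjusted p under 0.05 and DESeq2 called 1. Mars1, which loads methionine, was 48.7, 50.4 and 50.8 FPKM in WT and 25.7, 25.1 and 53.5 FPKM in sgMyc. Rars1, which loads arginine, was 61.2, 61.9 and 62.1 FPKM in WT and 37, 33.2 and 53.6 FPKM in sgMyc, with replicate 3 between WT and the other 2 (log2 fold change -0.58, SE 0.19, adjusted p = 0.093; -0.78, adjusted p = 1e-06 without replicate 3). In replicate 3 as a whole 16 synthetase genes were above and 4 below every WT library. Of 39 initiation and elongation factor genes, 28 fell and 4 rose without replicate 3. Eif5a, whose product helps ribosomes past difficult stretches, was 353, 355 and 366 FPKM in WT and 185, 182 and 440.4 FPKM in sgMyc. Eif3e and Eif3h, subunits of the initiation factor eIF3, and Eef2, which moves the ribosome along, fell in all 3 libraries: Eif3e was 41, 42.7 and 39.3 in WT and 31.8, 30.3 and 31.3 FPKM in sgMyc (log2 fold change -0.40, SE 0.07, adjusted p = 0.0155), and no factor was called when any other library was left out.

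Nucleotide and one-carbon enzymes were opposite in replicate 3 to a high degree. Of 31 nucleotide synthesis genes, 23 fell and 4 rose without replicate 3, and 27 were on the opposite side in replicate 3. Cad, which starts pyrimidine synthesis, was 26.6, 27.3 and 27.1 FPKM in WT and 14.5, 15.3 and 37.7 FPKM in sgMyc. Nme1, a nucleoside diphosphate kinase whose E-box is shown above, was 32.6, 34.4 and 35.4 FPKM in WT and 14, 14.3 and 44.7 FPKM in sgMyc. Dck, which salvages deoxycytidine, fell in all 3, from 22.4, 24 and 24.2 to 11.5, 11.5 and 14.2 FPKM (log2 fold change -0.92, SE 0.12, adjusted p = 0.0049), the only call with all libraries. Of 22 genes of serine synthesis and the folate cycle, 15 fell and 1 rose without replicate 3. Phgdh, the first enzyme of serine synthesis, was 129.6, 135 and 130.01 FPKM in WT and 57.9, 57.1 and 159 FPKM in sgMyc (-1.16, adjusted p = 8.3e-09 without replicate 3). Mthfd2, a mitochondrial folate enzyme, was 30.8, 29.6 and 29.6 FPKM in WT and 11.8, 12 and 34.3 FPKM in sgMyc. Their replicate 3 stood above all WT libraries, though by less than in Srm. Cth, which makes cysteine, fell (11.1, 12 and 12.2 to 4.96, 4.87 and 8.2 FPKM; log2 fold change -0.96, SE 0.23, adjusted p = 0.0362). All 3 sgMyc libraries were below WT for Cth. Of 14 polyamine genes, 3 rose and 1 fell with all libraries (0 to 1 and 0 to 1 with any other library left out), and 6 rose and 6 fell without replicate 3. Sms, which makes spermine, was 44.9, 44.1 and 29.7 FPKM in sgMyc against 23.7, 24.1 and 22.9 in WT (log2 fold change 0.74, SE 0.15, adjusted p = 0.0239), and Smox, which breaks spermine down, 11.9, 11.2 and 9.24 against 5.71, 6.75 and 6.44 (log2 fold change 0.77, SE 0.12, adjusted p = 0.00894).

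Protein quality control and splicing genes showed the opposite side in replicate 3 as well. Of 31 proteasome subunit genes, 27 fell without replicate 3 and 30 were above every WT library in replicate 3. Psmb3, of the core particle, was 36.9, 38.2 and 39.4 FPKM in WT and 21.8, 22.4 and 48.4 FPKM in sgMyc. Psmd14, which removes ubiquitin at the proteasome, was below WT in all 3 (33.7, 35.5 and 35.6 and 16.8, 17.7 and 27.1 FPKM; log2 fold change -0.76, SE 0.20, adjusted p = 0.0494) and was the single call with all libraries, lost when any other library was left out. Of 28 chaperone genes, 20 fell and 5 rose without replicate 3, with 23 above WT in replicate 3. Cryab, a small heat shock protein, was 29.5, 27.3 and 22.8 FPKM in WT and 11.8, 11.4 and 44.1 FPKM in sgMyc. Of 50 splicing and RNA binding factor genes, 33 fell and 5 rose without replicate 3, and 40 were above WT in replicate 3. With all libraries edgeR called 0 of these 50, with 4 at an unadjusted p under 0.05 and 1 called by DESeq2. Prmt5, which methylates snRNP proteins, was 19.4, 18.5 and 18.4 FPKM in WT and 13.1, 13.4 and 27.1 FPKM in sgMyc.

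**Figure D4:**
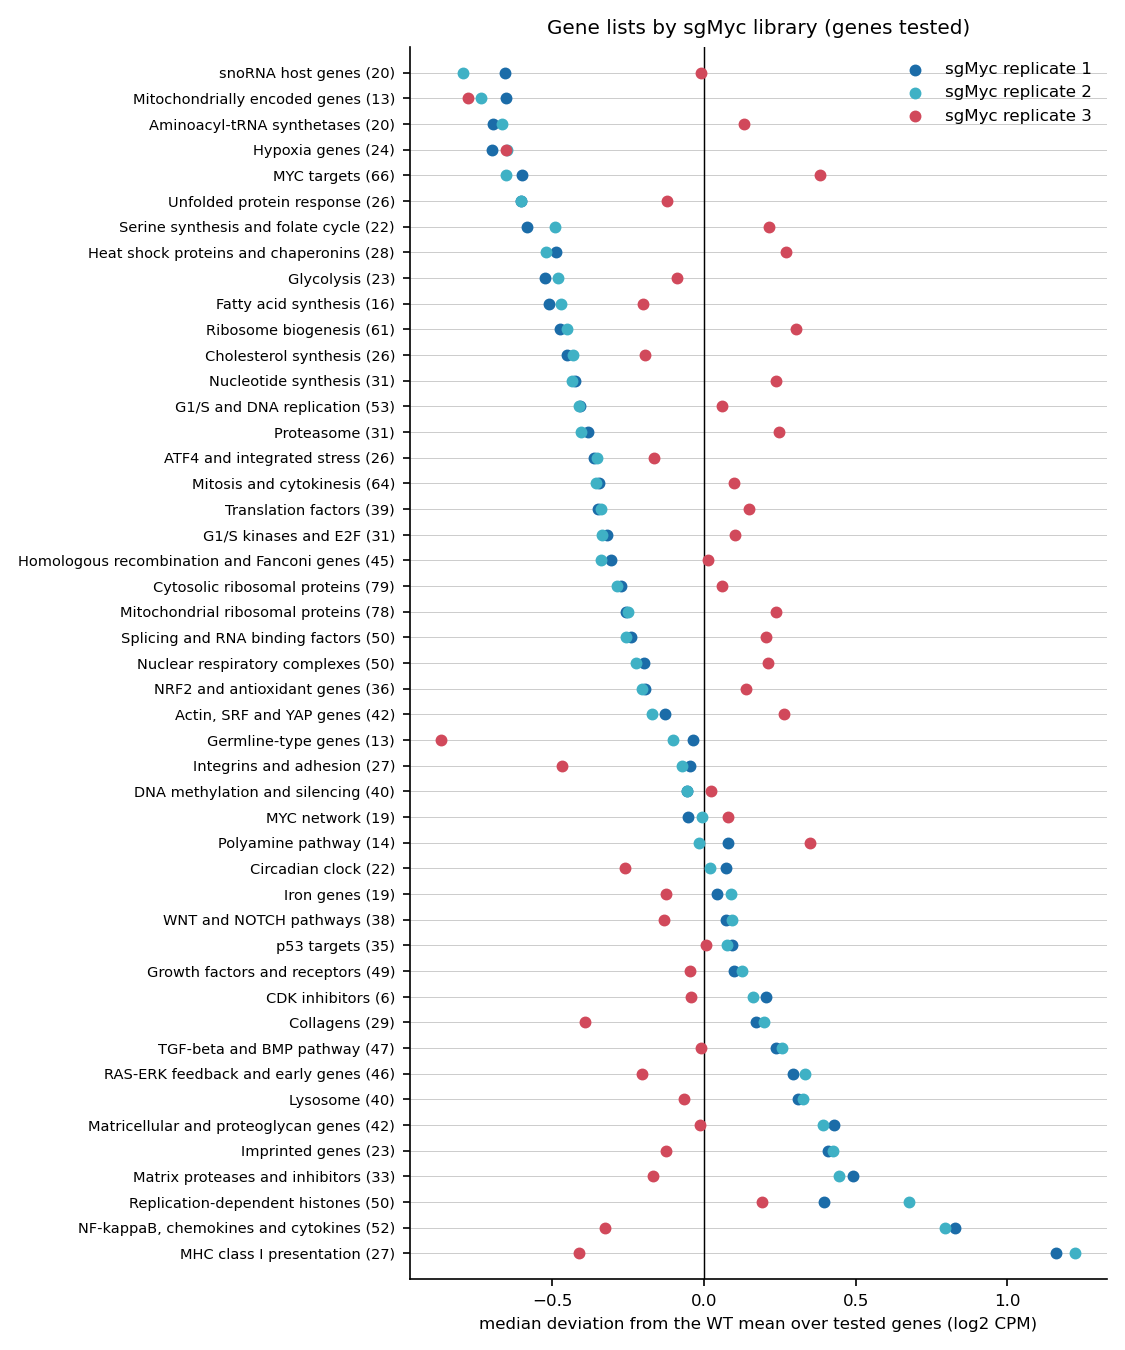
Median deviation from the WT mean (log2 CPM) over the tested members of 47 gene lists in each sgMyc library, ordered by the mean of replicates 1 and 2; the interferon-stimulated list is left off for its scale. Replicates 1 and 2 lie close together in most lists, and replicate 3 lies on the other side of 0 for most growth lists and with them for mitochondrially encoded, hypoxia and lipid genes.

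The cell cycle genes held both kinds of change. Cdk2, the kinase of S phase entry, was 40.5, 38.8 and 46.6 FPKM in WT and 11.7, 11.2 and 12.4 FPKM in sgMyc. The 3 sgMyc values lay within 11.2 to 12.4 FPKM, far below WT, so this fall had the same size in every sgMyc library (log2 fold change -1.83, SE 0.10, adjusted p = 0.00055; -1.84, adjusted p = 1.2e-07 without replicate 3). Its activating cyclin Ccne2 was 17.5, 18 and 17.1 in WT and 10.2, 9.68 and 13.2 FPKM in sgMyc (log2 fold change -0.67, SE 0.14, adjusted p = 0.0253), and Ccnd1, the cyclin of early G1, 203, 203 and 202 and 124, 127 and 166 FPKM (log2 fold change -0.54, SE 0.14, adjusted p = 0.0454). Ccne1, the other E cyclin, was 15.2, 14.6 and 15.1 FPKM in WT and 9.5, 10.1 and 20.4 FPKM in sgMyc, opposite in replicate 3. Of 31 cyclin, CDK, E2F and RB family genes, 6 were called with all libraries, all lower (1 when any other library was left out), and 18 fell and 5 rose without replicate 3. Replicate 3 was beyond WT on the same side in 13 of them and on the opposite side in 15. None of 6 CDK inhibitor genes passed edgeR with all libraries (2 at an unadjusted p under 0.05, and 1 called by DESeq2), and without replicate 3 3 rose and 0 fell. Cdkn2b, an inhibitor of CDK4 and CDK6, was 28.9, 30.6 and 29.5 FPKM in WT and 64, 65.2 and 29.96 FPKM in sgMyc (1.15, adjusted p = 4.8e-08 without replicate 3). Cdkn2a, the gene of p16 and ARF, was 231, 237 and 234 FPKM in WT and 348, 351 and 228 FPKM in sgMyc (0.61, adjusted p = 2.1e-07 without replicate 3). In both, replicate 3 was at the WT level while replicates 1 and 2 were above it.

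Replication and mitosis genes were lower in replicates 1 and 2, with smaller medians than the MYC targets. Of 53 DNA replication genes, 48 fell and 1 rose without replicate 3 (median -0.36, against -0.58 for the MYC targets), and 8 fell with all libraries (0 to 1 with any other left out). Replicate 3 was below every WT library in 15 and above every WT library in 29. Rrm2, the regulated subunit of ribonucleotide reductase, was 47.5, 52.6 and 49.5 FPKM in WT and 23.8, 23.4 and 57.5 FPKM in sgMyc. Pcna, the sliding clamp of DNA polymerases, was 169.5, 173 and 172 FPKM in WT and 121, 124 and 145 FPKM in sgMyc, lower throughout (log2 fold change -0.40, SE 0.10, adjusted p = 0.0444). Pole2 and Gins4, of the polymerase epsilon and helicase complexes, fell in all 3 (log2 fold change -0.52, SE 0.11, adjusted p = 0.0263 for Pole2). Of 64 mitosis genes, 59 fell without replicate 3 (median -0.32), and 42 were above every WT library in replicate 3. Smc2, a condensin that packs chromosomes, fell in all 3, from 31.3, 33.5 and 32.4 to 15.8, 15.4 and 18.4 FPKM (log2 fold change -0.97, SE 0.10, adjusted p = 0.0028), and was the largest of 5 falls with all libraries (1 with any other left out). Mybl2, a transcription factor of mitotic genes, was 15.1, 15.1 and 15.3 FPKM in WT and 9.67, 9.84 and 23.4 FPKM in sgMyc. Pttg1, securin, was the exception without replicate 3, at 9.22, 8.06 and 8.81 FPKM in WT and 22.1, 21.7 and 9.53 FPKM in sgMyc (1.36, adjusted p = 5.2e-07 without replicate 3).

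Repair and histone genes were mixed. Of 45 recombination and Fanconi genes, 8 fell and 2 rose with all libraries, and 2 to 5 fell with any other left out. Without replicate 3, 26 fell and 3 rose, and replicate 3 was on the opposite side in 19. Fanca, of the Fanconi core complex, was 10.9, 11.1 and 10.9 FPKM in WT and 6.7, 7.17 and 14.1 FPKM in sgMyc. Of 50 replication-dependent histone genes, 18 rose and 6 fell without replicate 3. With all libraries 3 rose and 5 fell (1 and 3 with any other left out). Replicate 3 was on the same side in 27 and on the opposite side in 12, with 11 undecided. H1f2, a linker histone, was 8.89, 9.39 and 7.92 FPKM in WT and 66.9, 71 and 9.46 FPKM in sgMyc (log2 fold change 2.48, SE 0.68, adjusted p = 0.0562; 3.01, adjusted p = 2.3e-09 without replicate 3). H2bc4, a core histone, was 2.43, 2.62 and 2.65 FPKM in WT and 16.1, 15.7 and 9.13 FPKM in sgMyc (log2 fold change 2.40, SE 0.23, adjusted p = 0.00246). H3c3 fell in all 3 libraries, from 5.44, 5.92 and 6.16 to 1.3, 1.06 and 1.47 FPKM (log2 fold change -2.18, SE 0.21, adjusted p = 0.00229). Histone genes are near-identical copies and mostly lack poly(A) tails, so both their counts and their capture are uncertain.

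**Figure D5:**
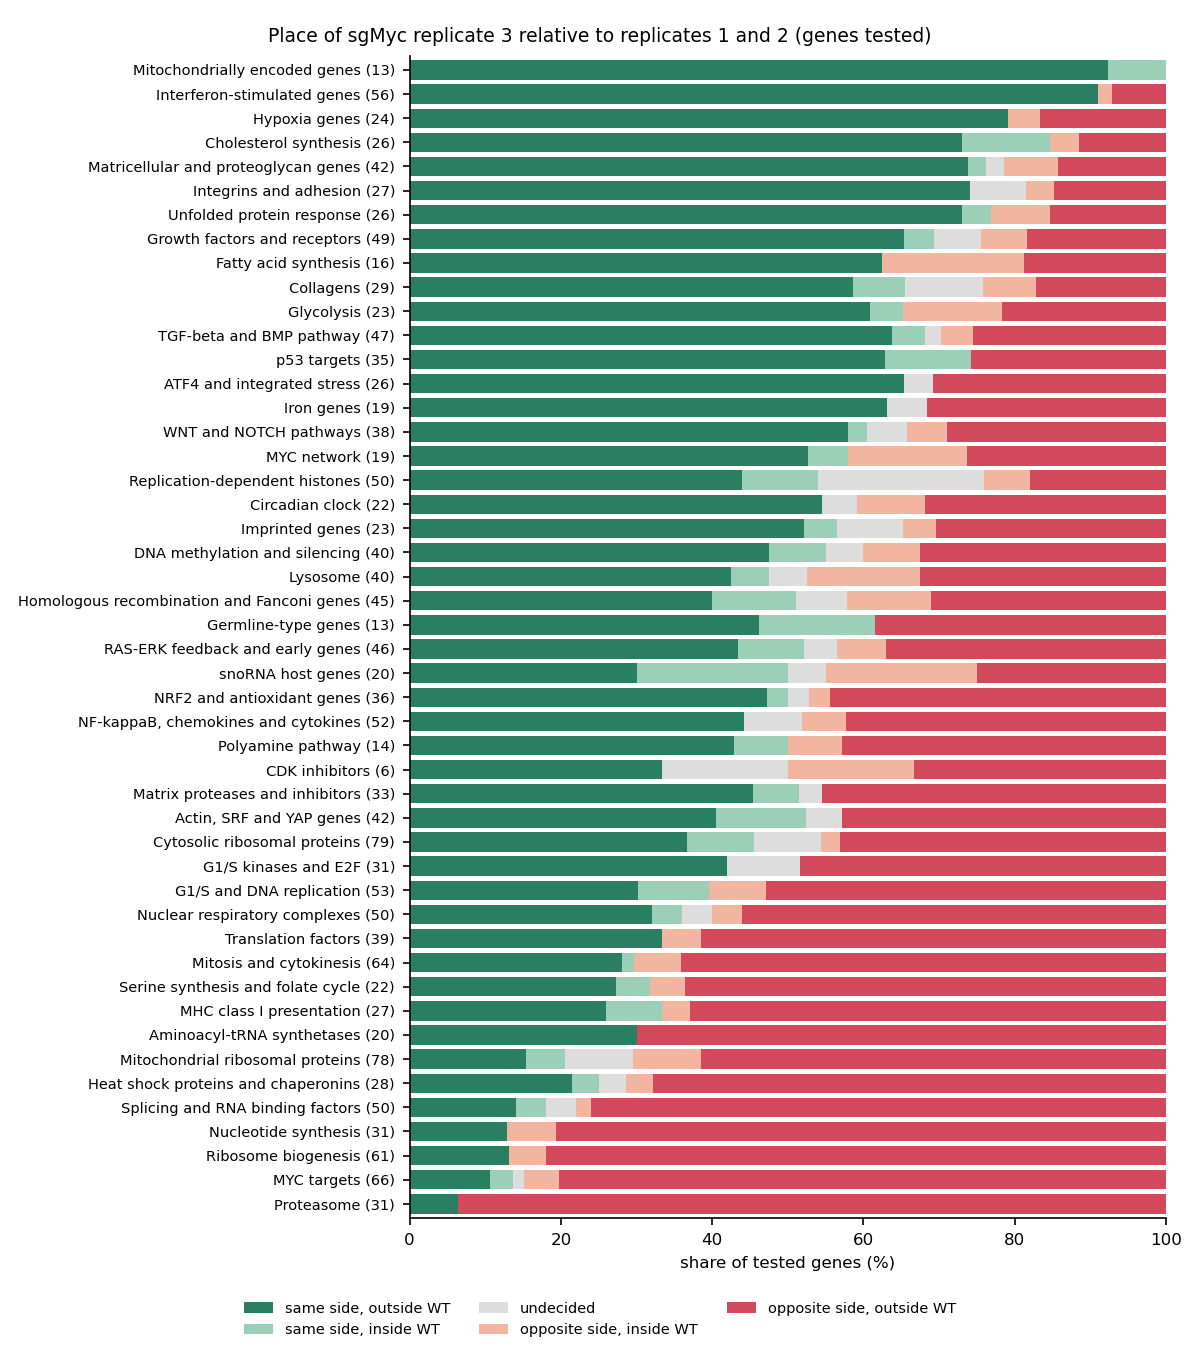
Share of the tested members of each gene list by the place of sgMyc replicate 3: on the side of WT shared by replicates 1 and 2 and beyond all WT libraries, on that side but inside the WT range, on the opposite side inside or beyond it, or undecided where replicates 1 and 2 differ in sign. The proteasome list has 29 of 31 members on the opposite side beyond WT, and the mitochondrially encoded list has 12 of 13 on the same side beyond WT.

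Mitochondrially encoded genes fell in all 3 sgMyc libraries. Of 13, 11 fell with all libraries, 6 to 10 with any other library left out and 13 without replicate 3, against 8.86% and 26.9% of all genes. Their median deviations were -0.65, -0.73 and -0.78. mt-Nd2, a subunit of complex I, was 1461, 1371 and 1432 FPKM in WT and 706, 642 and 755 FPKM in sgMyc (log2 fold change -1.02, SE 0.10, adjusted p = 0.00235). mt-Co1, a subunit of cytochrome oxidase, was 8409, 7433 and 8771 FPKM in WT and 6669, 6274 and 4541 FPKM in sgMyc, lowest in replicate 3, and did not pass (log2 fold change -0.50, SE 0.16, adjusted p = 0.0815). Mitochondrial genes held 3.52%, 3.19% and 3.56% of all counts in WT and 2.43%, 2.3% and 2.03% in sgMyc replicates 1, 2 and 3. The 13 genes are part of this share, and their falls are not independent of each other. This share is also a sign of RNA quality, whose part in the other results was not tested. Of the nuclear genes of the respiratory complexes, 27 of 50 fell without replicate 3, against 26.9% of all genes, and 36 were above every WT library in replicate 3. Ndufb8, of complex I, fell in all 3 (13.3, 13.2 and 13.9 to 7.11, 7.76 and 9.71 FPKM; log2 fold change -0.71, SE 0.14, adjusted p = 0.0203), whereas Uqcrq, of complex III, was 21, 21 and 20.9 FPKM in WT and 9.87, 11 and 20.3 FPKM in sgMyc.

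Most hypoxia genes were below WT in all 3 sgMyc libraries, with median deviations of -0.70, -0.65 and -0.65 over the list. All 3 sgMyc libraries were below every WT library in 15 genes and above every WT library in 3. Of 24 tested targets of the hypoxia-inducible factors, 14 fell and 3 rose with all libraries, and 7 to 10 fell with any other library left out. Without replicate 3, 14 fell and 7 rose. Car9, a carbonic anhydrase of hypoxic cells, was 93.7, 90.9 and 104 FPKM in WT and 30.2, 30.3 and 11.2 FPKM in sgMyc (log2 fold change -2.02, SE 0.36, adjusted p = 0.0159). Adm, adrenomedullin, was 30.7, 28 and 35 FPKM in WT and 14, 13.4 and 13 FPKM in sgMyc (log2 fold change -1.21, SE 0.11, adjusted p = 0.00176). Ero1a, an oxidase of the endoplasmic reticulum, was 139, 142 and 165 FPKM in WT and 85.2, 85.5 and 46.8 FPKM in sgMyc (log2 fold change -1.04, SE 0.23, adjusted p = 0.0293). In Car9 and Ero1a replicate 3 was the lowest library, and in Adm the 3 sgMyc libraries were alike. Of 23 glycolysis genes, 8 fell and 2 rose with all libraries (2 to 5 fell with any other left out), and replicate 3 was below every WT library in 14. Leaving out replicate 3 gave 14 falls and 5 rises. Pfkp, a phosphofructokinase, was 14.7, 14.4 and 16.6 FPKM in WT and 7.64, 7.51 and 8.53 FPKM in sgMyc (log2 fold change -0.95, SE 0.10, adjusted p = 0.00299), Pgam1, a mutase, was 579, 579.9 and 608 in WT and 338, 342 and 470.04 FPKM in sgMyc (log2 fold change -0.62, SE 0.16, adjusted p = 0.0439). Ldhb, a lactate dehydrogenase chain, rose (25.2, 28.1 and 26 to 58.2, 59.7 and 34.2 FPKM; log2 fold change 0.93, SE 0.20, adjusted p = 0.0283).

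Lipid synthesis genes were also mostly below WT in all 3 libraries. Of 26 cholesterol genes, 7 were called with all libraries, all lower (1 to 2 with any other left out), 20 fell without replicate 3, and replicate 3 was on the same side in 22. Srebf1, a transcription factor of lipid synthesis, was 21.7, 20.4 and 23.5 FPKM in WT and 12.6, 12.1 and 11.7 FPKM in sgMyc (log2 fold change -0.85, SE 0.08, adjusted p = 0.00229). Msmo1, a sterol demethylation enzyme, fell from 35.8, 39.4 and 34.7 to 24.5, 23 and 26.8 FPKM (log2 fold change -0.56, SE 0.10, adjusted p = 0.0136). Mvd, which makes isopentenyl units, was 15.5, 15 and 28.3 FPKM in sgMyc against 34.9, 34.5 and 32.3 in WT, with replicate 3 nearest to WT (log2 fold change -0.78, SE 0.26, adjusted p = 0.098). Of 16 fatty acid synthesis genes, 6 were called with all libraries, all lower (3 to 4 with any other left out), and 15 fell and 1 rose without replicate 3. Scd2, a desaturase, was 415, 410.2 and 424 FPKM in WT and 212, 214 and 215 FPKM in sgMyc, with 3 near-equal sgMyc values (log2 fold change -0.96, SE 0.07, adjusted p = 0.00122). Fads1, another desaturase, was 34.7, 35 and 36.1 FPKM in WT and 23.9, 23.7 and 22.8 FPKM in sgMyc (log2 fold change -0.59, SE 0.06, adjusted p = 0.00313). Fasn, the synthase itself, was 45.1, 43.7 and 43.5 FPKM in WT and 25.3, 26.9 and 43.7 FPKM in sgMyc, where replicate 3 was at the WT level.

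Stress response genes changed in both directions, with more falls than rises. Of 26 genes of the unfolded protein response, 5 fell and 1 rose with all libraries, none falling with any other left out. Without replicate 3, 19 fell, and replicate 3 was on the same side in 20. Hsp90b1, a chaperone of the endoplasmic reticulum, was 695, 706 and 721 FPKM in WT and 320.2, 310.01 and 465 FPKM in sgMyc (log2 fold change -0.95, SE 0.18, adjusted p = 0.0186). Ern1, the sensor IRE1, rose (5.16, 5.49 and 5.23 to 12.4, 12.2 and 8.93 FPKM; log2 fold change 1.07, SE 0.13, adjusted p = 0.00397). Of 26 ATF4 pathway genes, 6 fell and 4 rose with all libraries (1 to 2 and 1 to 2 with any other left out). Without replicate 3, 15 fell and 6 rose, and replicate 3 was on the same side in 17. Trib3, a pseudokinase induced by ATF4, was 20.7, 21 and 22 FPKM in WT and 5.78, 6.68 and 12.8 FPKM in sgMyc (log2 fold change -1.32, SE 0.31, adjusted p = 0.036). Chac1, which degrades glutathione, was 30.7, 28 and 27.4 FPKM in WT and 9.48, 9.87 and 17.6 FPKM in sgMyc (log2 fold change -1.22, SE 0.26, adjusted p = 0.0274). Cebpb, a partner of ATF4, rose from 43.3, 45.7 and 42 to 82, 86.3 and 60.9 FPKM (log2 fold change 0.80, SE 0.13, adjusted p = 0.0109). The amino acid genes of the list were divided, with Slc7a5, an importer of large amino acids, at 43.8, 45 and 46.7 FPKM in WT and 17.2, 18.6 and 50.3 FPKM in sgMyc, and Asns, which makes asparagine, at 74.1, 75.3 and 74 FPKM in WT and 37.1, 38.6 and 73.2 FPKM in sgMyc. Their replicate 3 was at or above WT.

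Matrix genes changed in both directions and mostly on the same side in the 3 libraries. Of 42 tested matricellular and proteoglycan genes, 14 rose and 7 fell with all libraries (2 to 6 and 2 to 4 with any other left out), and replicate 3 was beyond WT on the same side in 31. In this list 25 rose and 10 fell without replicate 3. Spp1, osteopontin, was 639, 660.2 and 556 FPKM in WT and 3348, 3245 and 1023 FPKM in sgMyc (log2 fold change 2.03, SE 0.42, adjusted p = 0.0253). Fbln2, a fibulin, was 104, 104 and 119 FPKM in WT and 22, 22.7 and 43 FPKM in sgMyc (log2 fold change -1.89, SE 0.29, adjusted p = 0.00961). Bgn, a small proteoglycan, was 94.9, 85.7 and 112 FPKM in WT and 0.704, 0.595 and 0.42 FPKM in sgMyc (log2 fold change -7.41, SE 0.25, adjusted p = 0.0003). Spp1 and Fbln2 moved less in replicate 3, and Bgn was nearly absent from all 3. Dcn, another small proteoglycan, was 0.619, 0.654 and 0.658 FPKM in WT and 15.2, 14.6 and 0.67 FPKM in sgMyc, so its rise was made by replicates 1 and 2 (log2 fold change 3.96, SE 1.03, adjusted p = 0.0484). Of 29 collagen genes, 4 rose and 5 fell with all libraries (3 to 4 and 1 to 2 with any other left out). The balance was different without replicate 3, at 13 higher and 9 lower, and the median deviations were 0.17, 0.20 and -0.39 in replicates 1, 2 and 3. Col3a1, of type III collagen, was 26.7, 28 and 21.5 FPKM in WT and 229, 229 and 25.1 FPKM in sgMyc, at the WT level in replicate 3 (log2 fold change 2.65, SE 0.75, adjusted p = 0.0606; 3.21, adjusted p = 1e-08 without replicate 3), and Col5a1 rose by a little in all 3 (27.1, 25.5 and 25.7 to 31.7, 34.3 and 34.1 FPKM; log2 fold change 0.35, SE 0.08, adjusted p = 0.028).

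Protease, adhesion and actin genes changed in both directions. Of 33 matrix protease and inhibitor genes, 7 rose and 5 fell (1 to 2 and 2 to 3 with any library but replicate 3 left out). Without it 20 rose and 8 fell, and its own value was on the opposite side in 15. Mmp3, stromelysin, was 0.335, 0.141 and 0.246 FPKM in WT and 18.2, 18.4 and 1.36 FPKM in sgMyc (log2 fold change 5.65, SE 1.05, adjusted p = 0.0176). Mmp2, a gelatinase, was 7.44, 7.48 and 9.11 FPKM in WT and 8.83, 9.84 and 0.531 FPKM in sgMyc, low in replicate 3 alone. Of 27 integrin and adhesion genes, 8 fell and 3 rose (4 to 7 and 0 to 1 on the same terms), with replicate 3 beyond WT on the same side in 20, and 11 rose and 9 fell without replicate 3. Itgav, the alpha V integrin, was 21.2, 21.8 and 23.4 FPKM in WT and 14.9, 15.2 and 13.5 FPKM in sgMyc (log2 fold change -0.61, SE 0.08, adjusted p = 0.00522). Of 42 actin, SRF and YAP genes, 7 rose and 2 fell (1 to 5 rose and none fell on those terms). The balance turned without replicate 3, with 13 higher and 20 lower, and replicate 3 was above every WT library in 28 and below every WT library in 9. Yap1, the coactivator of the Hippo pathway, was 12.6, 13.1 and 11.8 FPKM in WT and 18.1, 18.3 and 16.2 FPKM in sgMyc (log2 fold change 0.49, SE 0.07, adjusted p = 0.00961). Ankrd1, a target of YAP, was 66.7, 65 and 77.2 FPKM in WT and 9.59, 10.8 and 34.3 FPKM in sgMyc and missed the threshold with all libraries (log2 fold change -1.92, SE 0.52, adjusted p = 0.053; -2.74, adjusted p = 2.2e-08 without replicate 3).

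Among signalling genes, those of the TGF-beta and BMP pathway rose more often than they fell. Of 47 TGF-beta and BMP pathway genes, 12 rose and 3 fell with all libraries, 3 to 8 rising with any other left out, and 31 rose and 11 fell without replicate 3. Bmp2, a bone morphogenetic protein, was 1.67, 1.4 and 1.16 FPKM in WT and 17, 18.5 and 4.02 FPKM in sgMyc (log2 fold change 3.21, SE 0.56, adjusted p = 0.0147). Grem1, its secreted antagonist, was 100.04, 106 and 80.5 FPKM in WT and 402, 399.96 and 187 FPKM in sgMyc (log2 fold change 1.78, SE 0.29, adjusted p = 0.012). Tgfb3, a TGF-beta ligand, was 4.97, 4.78 and 4.28 FPKM in WT and 12.5, 13.4 and 8.41 FPKM in sgMyc (log2 fold change 1.28, SE 0.18, adjusted p = 0.00653). In all 3 genes replicate 3 lay above WT and below replicates 1 and 2. Over the 47 genes, replicate 3 was above every WT library in 22 and below every WT library in 20. It was on the same side as replicates 1 and 2 in 32 and on the opposite side in 14. The median deviations of the list were 0.24, 0.26 and -0.0089 in replicates 1, 2 and 3. Of 49 growth factor and receptor genes, 9 rose and 9 fell (1 and 2 to 4 with any library but replicate 3 left out). Without replicate 3 the counts were 24 higher and 17 lower, and the median deviations were 0.10, 0.13 and -0.04. Pdgfrb, a receptor of platelet-derived growth factor, was 2.2, 1.82 and 1.56 FPKM in WT and 15.6, 16.2 and 3.78 FPKM in sgMyc (log2 fold change 2.66, SE 0.53, adjusted p = 0.0218). Pdgfra, its relative, was 18.4, 17.9 and 16.5 FPKM in WT and 62, 62.1 and 19.6 FPKM in sgMyc, near WT in replicate 3 (log2 fold change 1.43, SE 0.41, adjusted p = 0.0613; 1.85, adjusted p = 2.8e-09 without replicate 3). Of 38 WNT and NOTCH genes, 16 rose and 8 fell without replicate 3. Replicate 3 was on the same side in 23 of them and on the opposite side in 13. With all libraries 8 rose and 5 fell (2 to 5 and 3 to 4 on the same terms), among them Notum, which inactivates WNT (1.57, 1.86 and 1.4 in WT and 8.64, 9.56 and 4.14 FPKM in sgMyc; log2 fold change 2.20, SE 0.32, adjusted p = 0.00798), and the coreceptor gene Lrp5 (12, 11.9 and 12.9 and 7.4, 7.29 and 6.42 FPKM; log2 fold change -0.80, SE 0.08, adjusted p = 0.00257).

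Early response genes of RAS and ERK signalling included large departures of replicate 3. Fos, an AP-1 subunit, was 11, 11.1 and 10.4 FPKM in WT and 49.6, 50.2 and 1.04 FPKM in sgMyc, well above WT in replicates 1 and 2 and far below it in replicate 3 (log2 fold change 1.62, SE 1.09, adjusted p = 0.37; 2.23, adjusted p = 8e-10 without replicate 3). Fosb, its relative, was 3.4, 2.87 and 3.14 FPKM in WT and 11, 11.4 and 1.44 FPKM in sgMyc. Fosl1, another AP-1 subunit, fell in all 3 (134, 119 and 134 FPKM in WT and 44.7, 45.7 and 80.01 FPKM in sgMyc; log2 fold change -1.18, SE 0.25, adjusted p = 0.0267). Dusp5, a phosphatase of nuclear ERK, also fell (33.3, 31.5 and 33.6 FPKM in WT and 9.75, 9.8 and 17.4 FPKM in sgMyc; log2 fold change -1.41, SE 0.25, adjusted p = 0.0156), as did Klf6, a transcription factor, to near-equal levels (16, 14.8 and 18 FPKM in WT and 7.02, 7.23 and 7.36 FPKM in sgMyc; log2 fold change -1.18, SE 0.10, adjusted p = 0.00159). Of 46 genes in the list, 4 rose and 5 fell with all libraries (1 and 2 to 3 with any other left out). More rose without replicate 3, at 24 against 11 that fell, and replicate 3 was below every WT library in 28 of them.

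Inflammatory and antigen presentation genes were above WT in replicates 1 and 2, and only some of them in replicate 3. As a reference, 49 of 56 interferon-stimulated genes rose with all libraries and 56 without replicate 3, with median deviations of 6.06, 6.02 and 1.89; 1 to 21 rose with any other library left out. Of 27 class I presentation genes, 22 rose and 3 fell without replicate 3, but 1 passed with all libraries (none with any other left out), and 20 were below every WT library in replicate 3. H2-T22, a class I heavy chain, was 24.7, 25.5 and 23.2 FPKM in WT and 174, 173 and 33.8 FPKM in sgMyc (log2 fold change 2.36, SE 0.57, adjusted p = 0.0389). Tap2, of the peptide transporter, was 5.8, 5.78 and 6.01 FPKM in WT and 13.1, 12.8 and 1.24 FPKM in sgMyc. Psmb9, of the immunoproteasome, was 3.48, 3.03 and 3.31 FPKM in WT and 7.71, 8.26 and 0.924 FPKM in sgMyc. These 2 were above WT in replicates 1 and 2 and far below it in replicate 3. Class I heavy chain genes are close relatives, so reads may be shared between them. Of 52 NF-kappaB, chemokine and cytokine genes, 9 rose and 4 fell with all libraries (1 to 3 and 1 to 2 with any other left out), and 36 rose and 4 fell without replicate 3. In this list replicate 3 was below every WT library in 31 genes and above every WT library in 17. It was on the same side as replicates 1 and 2 in 23 and on the opposite side in 25. The median deviations were 0.83, 0.80 and -0.32. Ptgs2, the inducible prostaglandin synthase, was 18.4, 19.3 and 16.5 FPKM in WT and 69.8, 68.5 and 59.4 FPKM in sgMyc, high in all 3 libraries (log2 fold change 1.86, SE 0.09, adjusted p = 0.00043). Ccl5, a chemokine that draws T cells, was 18.2, 20.2 and 19.5 FPKM in WT and 155, 159.9 and 27.3 FPKM in sgMyc (log2 fold change 2.55, SE 0.61, adjusted p = 0.0381). Il33, an alarmin, was 15.6, 15.2 and 14.4 FPKM in WT and 66.1, 67.7 and 15.9 FPKM in sgMyc, which passed only without replicate 3 (log2 fold change 1.72, SE 0.50, adjusted p = 0.0649; 2.18, adjusted p = 7.1e-10 without replicate 3). Lcn2, an iron-binding secreted protein, was 1.56, 1.3 and 1.03 FPKM in WT and 29, 29.2 and 0.999 FPKM in sgMyc (4.50, adjusted p = 7.9e-09 without replicate 3).

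Chromatin and silencing genes moved both ways. Of 40 DNA methylation and silencing genes, 3 rose and 4 fell with all libraries (1 to 2 and 2 with any other left out), and 16 rose and 18 fell without replicate 3. Dnmt1, which copies methylation to new DNA strands, was 106, 108 and 93.4 FPKM in WT and 51.6, 51.5 and 62.9 FPKM in sgMyc (log2 fold change -0.88, SE 0.12, adjusted p = 0.00666), below WT in all 3 libraries and nearest to it in replicate 3. Kdm1a, a histone demethylase, was 28.6, 27.8 and 26.7 FPKM in WT and 47.9, 45.8 and 43.5 FPKM in sgMyc (log2 fold change 0.72, SE 0.07, adjusted p = 0.00242). Zbtb38, a reader of methylated DNA, was 6.77, 6.82 and 7.2 FPKM in WT and 3.94, 4.04 and 3.69 FPKM in sgMyc (log2 fold change -0.83, SE 0.07, adjusted p = 0.00159). Daxx, a histone chaperone that interferon can induce, was 11.4, 12 and 11.7 FPKM in WT and 46.9, 44.8 and 15.5 FPKM in sgMyc (log2 fold change 1.60, SE 0.38, adjusted p = 0.0386). Nat10, the RNA acetyltransferase, was 5.01, 4.86 and 5.13 FPKM in WT and 3.52, 3.31 and 6.27 FPKM in sgMyc, and did not pass with all libraries (log2 fold change -0.19, SE 0.26, adjusted p = 0.67; -0.52, adjusted p = 0.0001 without replicate 3). Of 13 tested germline-type genes, which DNA methylation usually silences, 1 was called with all libraries, and 3 rose and 3 fell without replicate 3. The first was Tdrkh, of the piRNA pathway, at 1.42, 1.48 and 1.84 FPKM in WT and 0, 0 and 0 FPKM in sgMyc, picked after its values were seen. Of the 13, replicate 3 was below every WT library in 10 and above every WT library in 1. Their median deviations were -0.04, -0.10 and -0.86, though 14 of the 20 listed genes with a row stayed under 1 FPKM. Rhox5, an X-linked homeobox gene, was 116, 115 and 114 FPKM in WT and 114, 106 and 155 FPKM in sgMyc (log2 fold change 0.12, SE 0.16, adjusted p = 0.66). Of 23 imprinted genes, 3 rose and 4 fell (0 to 1 and 2 to 3 with any library but replicate 3 left out), and 10 rose and 6 fell without replicate 3. Among them were Igf2r, a clearance receptor of IGF2, at 22.6, 23.2 and 21.3 FPKM in WT and 50.5, 53.4 and 26.7 FPKM in sgMyc (log2 fold change 0.96, SE 0.24, adjusted p = 0.045) and Dlk1, a NOTCH-related ligand, at 106, 107 and 105 FPKM in WT and 212, 216 and 99.7 FPKM in sgMyc (log2 fold change 0.72, SE 0.27, adjusted p = 0.13; 1.04, adjusted p = 4.6e-09 without replicate 3).

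Lysosome, p53, antioxidant, iron and clock genes completed the lists. Of 40 lysosome genes, 29 rose and 4 fell without replicate 3. With all libraries 4 rose and 2 fell (no rises and 1 to 2 falls with any other left out), and replicate 3 was below every WT library in 19. Npc2, which carries cholesterol out of lysosomes, was 29.2, 30 and 28.3 FPKM in WT and 109.97, 108 and 35.8 FPKM in sgMyc (log2 fold change 1.53, SE 0.39, adjusted p = 0.0468). Grn, progranulin, was 40.7, 40.7 and 45.3 FPKM in WT and 71.2, 72.8 and 24.6 FPKM in sgMyc. Of 35 p53 targets, 5 rose and 4 fell (1 to 2 and 0 to 1 with any other left out), and 19 rose and 10 fell without replicate 3. Phlda3, an inhibitor of AKT, was 53.2, 52 and 53.6 FPKM in WT and 68.6, 72.3 and 71.6 FPKM in sgMyc (log2 fold change 0.42, SE 0.07, adjusted p = 0.0111). Trp53inp1, a stress protein, was 5.68, 5.58 and 5.08 FPKM in WT and 16.3, 15.9 and 3.08 FPKM in sgMyc, low in replicate 3. Of 36 NRF2 and antioxidant genes, 6 rose and 3 fell (1 to 3 and 0 to 2). The balance turned without replicate 3, with 13 higher and 18 lower, and replicate 3 was on the opposite side in 17. Sod2, the mitochondrial superoxide dismutase, was 4.35, 4.62 and 4.17 FPKM in WT and 8.54, 8.78 and 7.2 FPKM in sgMyc (log2 fold change 0.90, SE 0.09, adjusted p = 0.00275). Gpx8, a peroxidase of the endoplasmic reticulum, was 137, 145 and 151 FPKM in WT and 69.99, 65.6 and 91.3 FPKM in sgMyc (log2 fold change -0.93, SE 0.15, adjusted p = 0.0108). Of 19 iron genes, 4 rose and 6 fell (1 to 3 and 4 to 5), and 9 rose and 7 fell without replicate 3. Steap2, a metalloreductase, fell alike in all 3 (15.5, 15.1 and 16.4 FPKM in WT and 6.99, 6.63 and 7.12 FPKM in sgMyc; log2 fold change -1.18, SE 0.08, adjusted p = 0.0008). Tfrc, the transferrin receptor and a listed MYC target, was 23.1, 23.8 and 23.6 FPKM in WT and 17.6, 16 and 34.1 FPKM in sgMyc, above WT in replicate 3. Of 22 clock genes, 3 rose and 3 fell, and none rose and 0 to 2 fell with any other left out. In the absence of replicate 3 these counts were 10 and 7. Tef, a clock output factor, was 7.85, 7.54 and 8.05 FPKM in WT and 10.9, 10.8 and 9.02 FPKM in sgMyc (log2 fold change 0.39, SE 0.09, adjusted p = 0.0313). Dbp, another, was 5.82, 4.89 and 3.88 FPKM in WT and 11.7, 11.3 and 3.47 FPKM in sgMyc, below every WT library in replicate 3.

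The largest changes with all libraries are given for called genes with a group mean of at least 5 FPKM. Only genes whose 3 sgMyc and 3 WT libraries did not overlap were eligible, and predicted genes and pseudogenes were left out. Tspan6, a tetraspanin, had 5.68, 6 and 6.82 FPKM in WT and is listed at 0 in all sgMyc libraries, which over a floor of 3 counts in the group is at least 849-fold lower. Ppic, a prolyl isomerase, had 6.65, 5.39 and 7.82 FPKM and is also listed at 0, at least 623-fold lower. Adamts14, a procollagen protease, was 12.4, 11.7 and 15 FPKM in WT and 0.0118, 0.0154 and 0.0127 FPKM in sgMyc (log2 fold change -9.80, SE 0.21, adjusted p = 3.2e-05). Crabp1, which binds retinoic acid, was 273, 260.02 and 332 FPKM in WT and 0.519, 0.628 and 0.127 FPKM in sgMyc (log2 fold change -9.40, SE 0.47, adjusted p = 0.00043). Ctsz, a lysosomal protease, was 36.1, 34.2 and 42.6 FPKM in WT and 0.139, 0.144 and 0 FPKM in sgMyc (log2 fold change -8.58, SE 0.64, adjusted p = 0.0012). The kinase gene Rps6ka6 (log2 fold change -9.33, SE 0.50, adjusted p = 0.00047), Sulf2, which trims heparan sulfate (log2 fold change -7.36, SE 0.81, adjusted p = 0.00331), Rapsn, which clusters acetylcholine receptors (log2 fold change -7.19, SE 0.28, adjusted p = 0.00032), Pmp22, a myelin protein (log2 fold change -7.13, SE 0.69, adjusted p = 0.00246), and Bgn completed the 10 largest falls at that level. That every sgMyc library was below every WT library in these 10 genes follows from this choice. The 10 largest rises at that level were Iigp1, Tgtp2, Gbp6, Oas2, Slfn8, Slfn2, Ifi44, Zbp1, Ifit3b and Steap4. All but Steap4, a metalloreductase, belong to families induced by interferon, and replicate 3 had a small part of each rise. Steap4 was 0.059, 0.0349 and 0.0205 FPKM in WT and 19.2, 20.2 and 0.869 FPKM in sgMyc (log2 fold change 8.34, SE 1.41, adjusted p = 0.013).

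Changes of like size in the 3 libraries were sought after the values were seen, among called genes outside the interferon list. Replicate 3 had to deviate by 0.8 to 1.25 times the mean of replicates 1 and 2. A group mean of at least 5 FPKM and no overlap between the 3 sgMyc and 3 WT libraries were also required. Predicted genes and pseudogenes were left out. There were 181 that rose and 238 that fell, from 2682 called genes before the other conditions. Magea10, a cancer-testis gene of the X chromosome, was 0.286, 0.0978 and 0.0728 FPKM in WT and 8.15, 7.95 and 10.9 FPKM in sgMyc (log2 fold change 5.80, SE 0.49, adjusted p = 0.00166). Xlr3c, also X-linked and active in germ cells, was 4.5, 5.23 and 4.43 FPKM in WT and 25.8, 25.3 and 25.4 FPKM in sgMyc (log2 fold change 2.43, SE 0.10, adjusted p = 0.00032). Rgs16, a brake on G protein signalling, was 8.67, 7.55 and 6.13 FPKM in WT and 41.2, 42.6 and 30.7 FPKM in sgMyc (log2 fold change 2.35, SE 0.17, adjusted p = 0.0012). Fbln1, a fibulin of the matrix, was 10.3, 10.6 and 9.74 FPKM in WT and 28.1, 27.5 and 25 FPKM in sgMyc (log2 fold change 1.39, SE 0.07, adjusted p = 0.00045). That the sgMyc libraries of these genes were alike and above WT follows from the choice. Aim2, a sensor of DNA in the cytosol, was 4.95, 4.87 and 4.13 FPKM in WT and 17.7, 18.3 and 14.4 FPKM in sgMyc (log2 fold change 1.85, SE 0.12, adjusted p = 0.0008).

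Several mesenchymal markers were high and most markers of other cell types were low in every library. Of the mesenchymal markers, Vim, an intermediate filament, was 924, 909 and 918 FPKM in WT and 750.3, 744 and 672 FPKM in sgMyc (log2 fold change -0.35, SE 0.08, adjusted p = 0.0324). Twist1, a mesenchymal transcription factor, was 48.6, 47.9 and 44.2 FPKM in WT and 52.3, 52.7 and 51.2 FPKM in sgMyc. Col1a2, of type I collagen, was 76.2, 76.2 and 69.1 FPKM in WT and 91.8, 92.6 and 71.4 FPKM in sgMyc, while Col1a1, its partner chain, was under 0.5 FPKM throughout (0.371, 0.383 and 0.399 FPKM in WT and 0.314, 0.46 and 0.0964 FPKM in sgMyc). Dcn, Lum, another small proteoglycan, and Fap, a surface protease, were also under 1 FPKM in every WT library. Thy1, a surface glycoprotein, was 14.3, 12.4 and 10.8 FPKM in WT and 39.4, 38.8 and 57.5 FPKM in sgMyc and rose in all 3 (log2 fold change 1.86, SE 0.20, adjusted p = 0.00315). Of 13 mesenchymal markers tested, 4 rose and 1 fell with all libraries (1 to 2 rose and none fell with any other left out), and 11 rose and 1 fell without replicate 3. Summed over the 14 mesenchymal markers, levels were 1479, 1454 and 1411 FPKM in WT and 1836, 1849 and 1114 FPKM in sgMyc. Epithelial markers summed to 0.705, 0.703 and 0.649 FPKM in WT and 0.882, 1.1 and 0.31 FPKM in sgMyc, and Cdh1, E-cadherin, was 0.0525, 0.111 and 0.0655 FPKM in WT and 0, 0.0136 and 0 FPKM in sgMyc. T cell markers summed to 0.626, 0.437 and 0.518 FPKM in WT and 0.56, 0.375 and 0.334 FPKM in sgMyc, and endothelial markers to 1.93, 1.76 and 1.98 FPKM in WT and 1.13, 1.26 and 0.524 FPKM in sgMyc. Over the lung epithelial, B cell, smooth muscle, skeletal muscle, adipocyte and erythroid lists, the summed level of a list was at most 6.14 FPKM in any library. The macrophage and myeloid markers summed to 12.3, 11.8 and 11.2 FPKM in WT and 29.3, 27.4 and 15.9 FPKM in sgMyc, mostly from Cd14, a coreceptor of lipopolysaccharide (8.31, 8.76 and 7.21 FPKM in WT and 22.1, 20.6 and 13.5 FPKM in sgMyc; log2 fold change 1.20, SE 0.19, adjusted p = 0.0103). Csf1r, which defines the lineage, was 0.0423, 0.0241 and 0.0421 FPKM in WT and 0.0347, 0 and 0.0523 FPKM in sgMyc. Of the lists other than the mesenchymal one, 59 genes had a row in the table, and 47 stayed under 1 FPKM in all libraries. Of 6 neural markers, 4 were among these. Of the other 2, Sox2, a transcription factor of neural and other progenitors, was 15.6, 17.4 and 15.1 FPKM in WT and 30.7, 31.1 and 23.7 FPKM in sgMyc (log2 fold change 0.83, SE 0.12, adjusted p = 0.0077). Tubb3, the tubulin of neurons, was 1.58, 1.59 and 2.65 FPKM in WT and 0, 0 and 0.0223 FPKM in sgMyc, almost lost in all 3 sgMyc libraries (log2 fold change -7.40, SE 0.79, adjusted p = 0.00305). The part of these markers in the results above was not tested.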

How the data were processed

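Messenger RNA was measured by RNA-seq in 3 WT and 3 sgMyc libraries of the TC1 line. The deposited table holds raw read counts per gene and FPKM values that the authors computed, per the file headers. The submitters' processing notes name FastQC, Trim Galore, Bowtie2 and featureCounts and the mm10 build, and versions are not given in the sources used here. Counting error is small at 51875052 to 65768024 counts per library, and intervals beyond it rest on the 3 replicates a group. Genes passing edgeR's filterByExpr were scaled by TMM and tested with edgeR 4.0.16 (quasi-likelihood) in R 4.3.3, with Benjamini-Hochberg adjustment over all genes tested. DESeq2 1.42.0 and limma 3.58.1 were alternatives. The scripts were tested on simulated data. FPKM values served as printed levels, and log2 CPM with a prior count of 2 for deviations. The gene lists (48), marker lists (12) and the comparison itself were chosen with earlier results of these data known. Genes were named by rule: 5 fixed genes, the 10 largest called rises and falls without overlap between groups and with a group mean of at least 5 FPKM, and in each list up to 4 called genes with the largest change plus 2 with the most different sgMyc replicate 3 (or the lowest p), and markers. Promoters are from RefSeq (GRCm38.p6), matched by symbol. The positions in the table were not used. A few named genes are not reported here.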

Additional observations from a re-analysis of the deposited data

How the results depend on the processing

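Against 1194 higher and 1488 lower genes, a mean of at least 5 FPKM gave 788 higher and 786 lower, DESeq2 gave 2288 and 2037, and limma voom with sample weights 4328 and 5472, with a weight of 0.046 for sgMyc replicate 3. RLE size factors gave 1330 and 1358, library totals alone 1192 and 1458, no filter 866 and 1060, and robust fitting 1158 and 1461. Leaving out 1 library gave 187 to 4658 higher and 493 to 4710 lower genes, the highest without sgMyc replicate 3 and the lowest without WT replicate 3. The cause was not tested, except that fewer samples enter each of these fits. A replicate block gave 408 higher and 674 lower genes. The labels do not say what libraries of the same number share. Deviations of same-numbered libraries from their own group means had correlations of 0.0038, 0.016 and 0.0038. In sgMyc these deviations are set largely by replicate 3, so they cannot show whether the numbers pair the libraries.

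Of 167 named genes, 167 kept their direction and side of the threshold with library totals alone, 164 with RLE size factors, 163 with robust fitting, 149 of 160 with the FPKM filter, 148 with DESeq2, 145 without a filter and 108 with limma voom with sample weights. With the replicate block 35 calls were lost and 1 was gained. Without 1 WT library 59 to 63 calls were lost, and without sgMyc replicate 1 or 2 it was 42. Without sgMyc replicate 3 none was lost and 56 were gained. Leaving out each library in turn changed the sign of the log2 fold change of 15 named genes. It ranged from -0.82 to 0.0089 for Cad, -0.58 to 0.065 for Ccne1, -0.86 to 0.046 for Col1a1, -1.16 to 0.11 for Cryab, -1.09 to 0.26 for Csf1r. It ranged over -0.74 to 0.10 for Hspd1, -0.74 to 0.25 for Mmp2, -0.60 to 0.17 for Mybl2, -0.52 to 0.0036 for Nat10, -0.47 to 0.14 for Prmt5. For the others it ranged over -0.036 to 0.26 for Rhox5, -0.85 to 0.32 for Rrp9, -0.42 to 0.14 for Ruvbl1, -0.75 to 0.40 for Srm, -0.45 to 0.17 for Tfrc. Apart from these fits, Srm was -0.79 with limma voom with sample weights and -0.21 with the replicate block, Mmp2 was 0.19 and Rhox5 -0.084 with limma voom with sample weights, and Rrp9 was 0.017 with RLE size factors, 0.015 without a filter and 0.017 with DESeq2.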

Other observations

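Genes without a single count in all 3 sgMyc libraries were more numerous than the reverse. With at least 50 counts in every WT library, 56 genes had 0 counts in sgMyc replicates 1, 2 and 3. With at least 50 counts in every sgMyc library, 3 genes had 0 counts in all WT libraries. The first set, chosen after the values were seen, includes Fabp5, a fatty acid binding protein, with 895, 857 and 1161 counts in WT replicates 1, 2 and 3. It also includes Rftn1, a lipid raft protein, with 1121, 1051 and 1369 counts, and Zdhhc2, a palmitoyl transferase, with 897, 901 and 1067 counts. The second set is Ajap1, an adherens junction protein, with 386, 376 and 478 counts in sgMyc, the predicted gene Gm15433 with 1690, 1624 and 53, and Rsad2, an antiviral interferon gene, with 1912, 1727 and 78. The 0 counts of replicate 3 in the first set follow from how that set was chosen. Genes at 0 in sgMyc replicates 1 and 2 but not in replicate 3 could not enter it and were not counted. In the second set replicate 3 had far fewer counts than replicates 1 and 2 for Gm15433 and Rsad2 but not for Ajap1.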
